A study of Mus musculus with 8 samples.

Results

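The RNA of 10 genes for glucose uptake, glycolysis and lactate export was followed in spleen neutrophils of WT and Cxcr2-/- mice. The genes were chosen by name for their role, with earlier results of these data known. They are 10 of the 55414 genes listed for each library. They code for the glucose transporters Slc2a1 and Slc2a3, the hexokinases Hk1, Hk2 and Hk3, the phosphofructokinase Pfkl, the regulatory enzyme Pfkfb4, the pyruvate kinase Pkm, the lactate dehydrogenase Ldha and the lactate transporter Slc16a3. Cxcr2 is the chemokine receptor that draws neutrophils out of the bone marrow. The WT mice (strain FVB-WT) and the Cxcr2-/- mice (strain FVB-Cxcr2-/-) were 10 weeks old, with no treatment named, and kept in SOPF housing (free of specific and opportunistic pathogens), and 4 mice of each genotype gave 1 library each. The Cxcr2-/- mice had been backcrossed to FVB and lack the receptor in all cells from birth, so that a neutrophil's own loss of Cxcr2 and the condition of the whole animal cannot be told apart. Spleen cells were enriched for CD11b and then sorted as CD45+ CD11b+ Ly6G+ F4/80- cells.

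Glycolysis turns glucose into pyruvate in the cytosol, and lactate dehydrogenase turns pyruvate into lactate, which leaves the cell with a proton. Mature neutrophils hold few mitochondria and draw most of their ATP from glycolysis, while their precursors in the marrow also use oxidative phosphorylation. Hexokinase traps glucose in the cell, phosphofructokinase sets the pace of the pathway, and pyruvate kinase makes its last ATP.

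Of the 10 genes, 6 were higher in Cxcr2-/- than in WT neutrophils (Hk1, Hk2, Hk3, Pfkl, Pkm and Ldha), Slc16a3 was lower, and Slc2a1, Slc2a3 and Pfkfb4 did not pass the test (edgeR's quasi-likelihood test, adjusted p under 0.05 over all 16778 genes tested, as for every call given here). Much of the transcriptome differed between these cells. By the same test 44.7% of all genes passed, 23.7% as higher and 21.0% as lower in Cxcr2-/- neutrophils. Among the 4226 better expressed genes (average log2 CPM 5 or more), 31.0% were higher and 28.6% lower. The median log2 fold change (Cxcr2-/- over WT) was 0.56 over the 10 genes and 0.013 over all tested genes. The CPM of the 4 WT and 4 Cxcr2-/- libraries did not overlap for 8 of the 10 genes, 7 of them higher and 1 lower in Cxcr2-/- neutrophils, against 41.6% of all tested genes (22.5% higher and 19.1% lower). With the further condition of a 1.5-fold change, 4 of the 10 genes were higher (Hk1, Hk2, Pfkl and Ldha) against 15.7% of all tested genes, and 0 were lower. CPM are a gene's counts scaled to a common library size with TMM factors, and the plot of CPM by library shows all 10 genes.

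**Figure D1:**
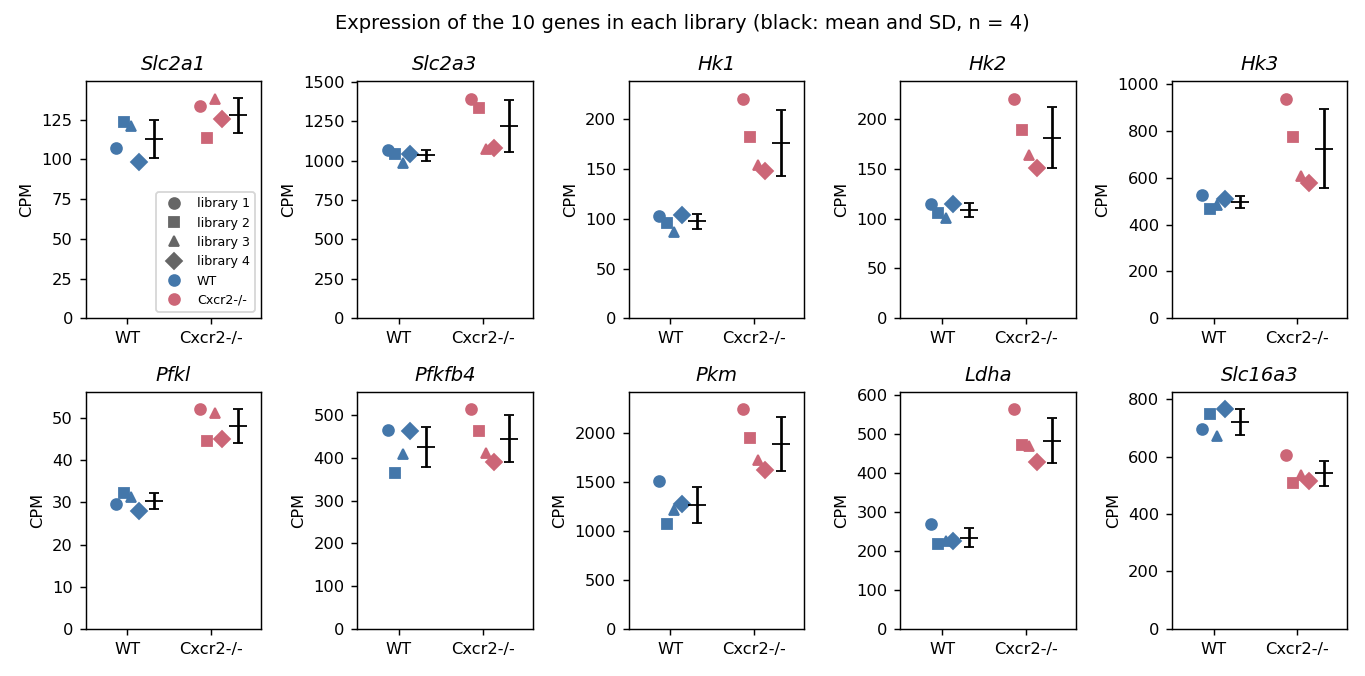
CPM of each of the 10 genes (vertical axis, from 0) in the 4 WT (blue) and 4 Cxcr2-/- (red) libraries, with 1 symbol per library number and the mean and SD in black. The groups overlap for Slc2a1 and Pfkfb4 alone, Slc16a3 is the one gene with all Cxcr2-/- libraries below WT, and Cxcr2-/- libraries 1 and 2 lie above 3 and 4 for 7 genes.

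The libraries held 34220182 to 46233555 counts on genes, and the share of read pairs outside genes was 31.4% to 41.5% in WT and 26.7% to 31.9% in Cxcr2-/- libraries. Cxcr2 itself was at 1719 to 2252 CPM in the WT and 12.9 to 20.7 CPM in the Cxcr2-/- libraries. The cells had the RNA of neutrophils, with S100a8 at 8956 CPM or more in every library, and of 7 neutrophil markers 5 were higher and 1 lower (Csf3r) in Cxcr2-/- libraries. In the latter all 8 markers of immature neutrophils (Mpo, Elane, Prtn3, Ctsg, Fcnb, Cebpe, Camp and Ltf, median log2 fold change 3.23) and all 8 of proliferation (median 1.95) were higher. The summed CPM of the 8 immature markers was 10209 to 12508 in WT and 22751 to 33957 in Cxcr2-/- libraries. Most of it came from Ltf and Camp (4732217 and 1373798 counts over the 8 libraries, against 42722 for Cebpe, the next). The 8 proliferation markers summed to 290.2 to 340 CPM in WT and 909 to 1016 CPM in Cxcr2-/- libraries. The part of immature or proliferating cells in the changes of the 10 genes was not tested. In bulk RNA fewer cells of a type and less RNA per cell cannot be told apart. Of the 8 B cell markers 6 were lower and 0 higher (summed CPM 73.6 to 158 in WT, 31.5 to 74.0 in Cxcr2-/-). Erythroid markers summed to at most 4.92 CPM in WT and 12.8 CPM in Cxcr2-/- libraries, and 0 of 5 tested passed. Of the 9 monocyte and macrophage markers 2 were higher and 2 lower, with summed CPM of 754 to 879 in WT and 889 to 1036 in Cxcr2-/- libraries. Their median log2 fold change was -0.93, and only 2 of the 9 had one above 0. Most of the sum came from Ly6c2 and Csf1r (137412 and 110511 counts over the 8 libraries, against 18140 for Cd68, the next). Of the other marker lists, 0 of 5 tested dendritic cell genes were higher and 3 lower, T and NK cell genes had 1 in each direction of 6, platelet genes 2 lower of 3, and eosinophil, basophil and mast cell genes 3 higher and 2 lower of 5.

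A stretch before a start of Ldha, which had the largest rise of the 10 genes, is printed. With it are those of Hk2, a hexokinase that rose, and Slc16a3, which fell, because all hold the letters ACGTG. These letters are a form of the core of the hypoxia response element, whose form GCGTG was not searched. With a C in front they form the E-box CACGTG, bound by Myc and by Mlx partners. They were searched on both strands (CACGT where the match is on the other strand) in the 250 bases before each RefSeq start, which the promoter table gives for 9 of the 10 genes in 12 windows. The letters were in a window of 6 of these 9 genes, and in 18.5% of the 27025 genes of the table. Capitals mark the matches, the sequences are from RefSeq (GRCm38.p6), written 5′ to 3′ on the strand of the gene, and the Slc16a3 stretch stops where an annotated exon begins, before the second of its 2 matches.
Ldha, chr7:46845554-46845803, + strand: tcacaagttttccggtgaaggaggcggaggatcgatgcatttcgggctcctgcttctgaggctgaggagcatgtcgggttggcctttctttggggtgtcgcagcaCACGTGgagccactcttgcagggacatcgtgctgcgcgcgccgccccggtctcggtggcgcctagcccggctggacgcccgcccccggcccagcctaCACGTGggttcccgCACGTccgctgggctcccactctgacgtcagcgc
Hk2, chr6:82774455-82774704, - strand: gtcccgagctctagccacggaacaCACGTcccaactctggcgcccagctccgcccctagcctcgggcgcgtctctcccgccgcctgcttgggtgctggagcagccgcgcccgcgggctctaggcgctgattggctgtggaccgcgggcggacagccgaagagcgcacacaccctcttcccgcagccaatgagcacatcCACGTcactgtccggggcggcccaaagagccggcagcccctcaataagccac
Slc16a3, chr11:120948817-120949052, + strand: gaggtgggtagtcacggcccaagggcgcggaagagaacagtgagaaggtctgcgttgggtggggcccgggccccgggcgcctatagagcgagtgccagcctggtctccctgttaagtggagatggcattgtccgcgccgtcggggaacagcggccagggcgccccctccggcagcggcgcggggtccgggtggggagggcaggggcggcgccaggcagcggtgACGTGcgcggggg
The Ldha stretch holds 3 runs of capitals, and in 2 of them the matches of both strands overlap as CACGTG. The Hk2 stretch holds 2, each on the other strand. The other window of Ldha (chr7:46846832-46847081) had no match. The other genes with a match in a window were Slc2a1, Hk3 and Pkm, and Hk1, Pfkl and Pfkfb4 had none. The matches of Slc2a1 and Pkm were not in the part of the window before an annotated exon. The search describes letters in these windows, and genes that rose, fell and did not pass the test are all among those with a match.

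Glucose enters neutrophils through facilitative transporters, of which Slc2a3 (GLUT3, high affinity) and Slc2a1 (GLUT1) were measured here. Slc2a3, on chromosome 6 (122727809 to 122801640 of GRCm38), was at 1065, 1042, 984 and 1045 CPM in the WT and at 1394, 1331, 1073 and 1079 CPM in the Cxcr2-/- libraries. The groups did not overlap, but Cxcr2-/- libraries 3 and 4 were close to the highest WT library and 1 and 2 far above it. The log2 fold change was 0.24 (95% interval -0.010 to 0.49, edgeR adjusted p = 0.110). With a covariate for erythroid markers it was 0.31 and passed the test (edgeR adjusted p = 0.00885). With a covariate for B cell and macrophage markers it was 0.079 and did not pass (edgeR adjusted p = 0.656). Slc2a1, on chromosome 4 (119108711 to 119137983), was at 107, 124, 121 and 98.4 CPM in WT and at 133, 113, 138 and 126 CPM in Cxcr2-/- neutrophils. Those values overlapped, with a log2 fold change of 0.18 (95% interval -0.039 to 0.40, edgeR adjusted p = 0.168). For both transporters the interval leaves out a rise of 1.5-fold. Per kb of exon, Slc2a1 made up 18.4% ± 1.92 (SD, n = 4) of both transporters together in WT and 18.0% ± 2.74 (n = 4) in Cxcr2-/- neutrophils (p = 0.800 by a two-sided exact permutation test).

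Among the other transporters of the family, Slc2a6, a lysosomal transporter, fell from 268 to 356 CPM in WT to 149 to 167 CPM in Cxcr2-/- libraries (log2 fold change -0.97, edgeR adjusted p = 2.28e-05). Slc2a9, a urate and hexose transporter, rose with a log2 fold change of 0.98 (edgeR adjusted p = 3.89e-04). Both log2 fold changes were larger in size than those of Slc2a1 and Slc2a3, a difference that was not tested.

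The 3 hexokinases, which phosphorylate glucose on entry, all rose. Hk1, on chromosome 10 (62268855 to 62379908), was at 103, 95.4, 86.9 and 104 CPM in WT and at 221, 182, 154 and 148 CPM in Cxcr2-/- libraries, so that the lowest Cxcr2-/- value was above the highest WT value. This was 1.81-fold, a log2 fold change of 0.86 (SE 0.13, edgeR adjusted p = 1.54e-04). Hk2, on chromosome 6 (82725025 to 82774454), codes for a hexokinase that is induced in many proliferating cells. It was at 115, 106, 100.4 and 115 CPM in WT and at 220.3, 189, 164 and 151 CPM in Cxcr2-/- libraries. Again no values overlapped, and the rise was 1.66-fold (log2 0.73, SE 0.12, edgeR adjusted p = 2.98e-04). Hk3, on chromosome 13 (55005985 to 55021385), is the hexokinase of myeloid cells, and Unc5a on the other strand, which overlaps its exons, had 4351 counts in all libraries together. It was at 527, 468, 485 and 509 CPM in WT and at 939, 776, 608 and 577 CPM in Cxcr2-/- libraries. The groups did not overlap, with 1.46-fold more RNA in Cxcr2-/- neutrophils (log2 0.54, SE 0.14, edgeR adjusted p = 0.00851). With a covariate for B cell and macrophage markers the log2 fold change of Hk3 was 0.29 and did not pass (edgeR adjusted p = 0.143). The covariate, a mean log level of these markers, was 3.30 to 3.98 in WT and 2.74 to 3.73 in Cxcr2-/- libraries. It was lowest in Cxcr2-/- libraries 1 and 2 (2.95 and 2.74), where Hk3 was highest. The covariate and the genotype go partly together, so this fit cannot separate them. Each hexokinase was highest in Cxcr2-/- library 1 and lowest in library 4.

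Per kb of exon, the sum of Hk1, Hk2 and Hk3 was 165 ± 8.72 CPM per kb (SD, n = 4) in WT and 248 ± 54.4 (n = 4) in Cxcr2-/- libraries, a ratio of 1.5. Hk3 made up most of it in every library, with shares of 82.1%, 81.5%, 83.0% and 81.5% in WT and 80.2%, 79.9%, 78.4% and 78.6% in Cxcr2-/- neutrophils. All Cxcr2-/- libraries were below all WT libraries. The mean difference was -2.72 percentage points (exact permutation test, two-sided, p = 0.0286, the smallest that 4 against 4 can give, and 0.0457 after Benjamini-Hochberg adjustment over 8 shares). The Hk1 share was 6.42% to 7.18% in WT and 8.10% to 8.72% in Cxcr2-/- neutrophils, and the Hk2 share 10.6% to 11.4% and 11.6% to 13.1% (each with the same p). The 3 shares add up to the whole, so they are not independent. The mix of hexokinase RNA thus leaned from Hk3 to Hk1 and Hk2, a shift of few points next to the rise of the whole family. Adpgk, which phosphorylates glucose with ADP in place of ATP, also rose (log2 fold change 0.67, edgeR adjusted p = 0.00216). It is not part of these sums and shares, though it was abundant. It had 542020 counts over 9609 bp of exon, against 195681 over 3682 bp for Hk3.

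**Figure D2:**
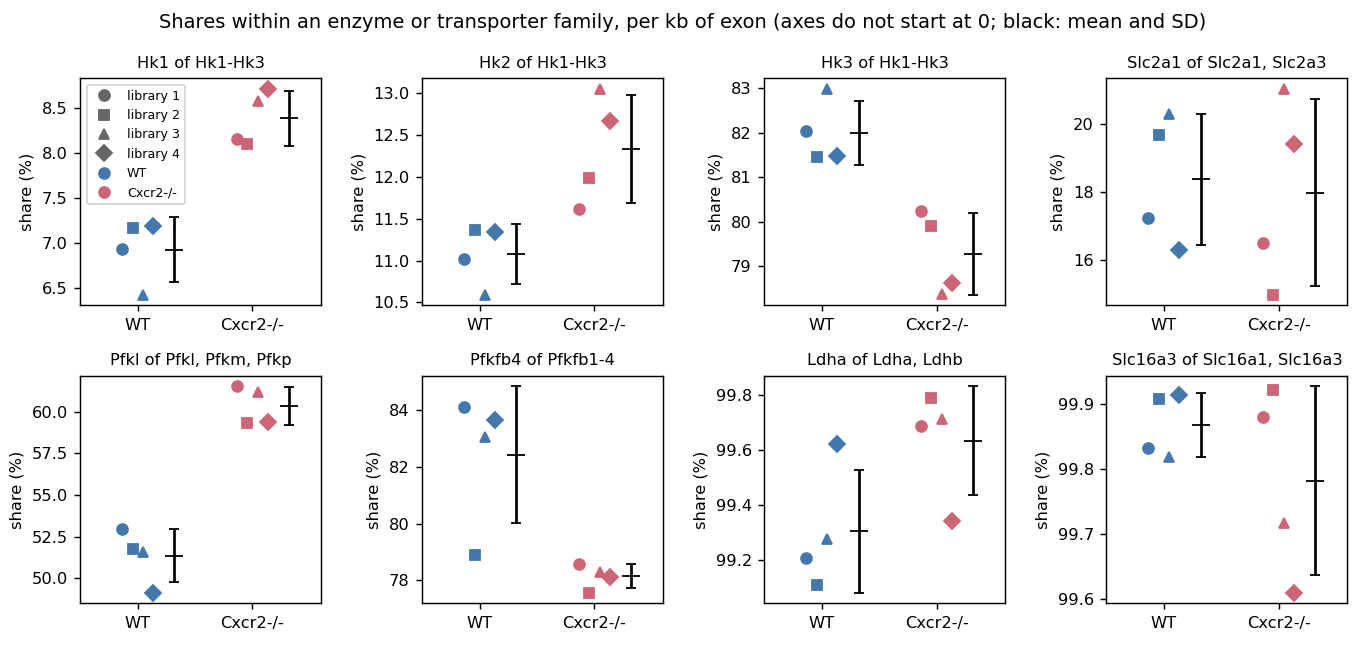
Share of one gene in its family in percent, from counts per kb of exon, in the 4 WT (blue) and 4 Cxcr2-/- (red) libraries, with the mean and SD in black (vertical axes do not start at 0). The groups separate for Hk1, Hk2, Hk3, Pfkl and Pfkfb4 and overlap for Slc2a1, Ldha and Slc16a3.

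At the phosphofructokinase step, Pfkl, the liver-type subunit, rose. It lies on chromosome 10 (77986947 to 78010083) and was at 29.7, 32.2, 31.3 and 27.9 CPM in WT and at 52.1, 44.5, 51.2 and 45 CPM in Cxcr2-/- libraries. The spread was small in both groups and the values did not overlap, with 1.59-fold more in Cxcr2-/- neutrophils (log2 0.67, SE 0.092, edgeR adjusted p = 8.47e-05). Pfkp, the platelet-type subunit, was at 50.6 to 56.3 CPM in WT and 55.9 to 61.7 CPM in Cxcr2-/- libraries (log2 0.10, edgeR adjusted p = 0.321), and Pfkm was at 1.46 CPM or less in every library. Per kb of exon, Pfkl made up 53.0%, 51.8%, 51.6% and 49.2% of the 3 subunits in WT and 61.5%, 59.3%, 61.2% and 59.4% in Cxcr2-/- neutrophils. This was 8.97 percentage points more (two-sided exact permutation test, p = 0.0286, adjusted 0.0457), the largest shift of the 8 shares.

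Pfkfb4 makes and breaks down fructose-2,6-bisphosphate, the main activator of phosphofructokinase. On chromosome 9 (108991778 to 109032228), it was at 466, 365, 410 and 462 CPM in WT and at 514, 463, 412 and 391 CPM in Cxcr2-/- libraries. The groups overlapped, and the log2 fold change was 0.063 (95% interval -0.19 to 0.32, edgeR adjusted p = 0.691), with a sign that turned under other scalings. The other genes of its family were higher in Cxcr2-/- neutrophils, with log2 fold changes of 0.42 for Pfkfb3, 1.01 for Pfkfb2 and 1.32 for Pfkfb1, which had few counts. The call of Pfkfb3 was lost with the covariate for B cell and macrophage markers (edgeR adjusted p = 0.0796). Per kb of exon, Pfkfb4 made up 78.9% to 84.1% of the family in WT and 77.6% to 78.6% in Cxcr2-/- neutrophils, 4.29 percentage points less (two-sided exact permutation test, p = 0.0286, adjusted 0.0457). WT library 2, at 78.9%, was the WT library closest to the Cxcr2-/- range.

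Pkm, on chromosome 9 (59656368 to 59679375), codes for the pyruvate kinase of blood cells, and counts per gene do not tell its M1 and M2 splice forms apart. It was at 1512, 1073, 1216 and 1273 CPM in WT and at 2243, 1949, 1724 and 1628 CPM in Cxcr2-/- libraries. Without overlap between the groups, it was 1.49-fold higher in Cxcr2-/- neutrophils (log2 0.57, SE 0.14, edgeR adjusted p = 0.00459). Gm49759, a predicted gene on the same strand whose exons overlap those of Pkm, took 27814 counts, against 505292 for Pkm, and pairs that met both genes may be missing from either. Pklr, the pyruvate kinase of liver and red cells, had 6 counts in all.

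Ldha, on chromosome 7 (46841475 to 46855627), makes lactate from pyruvate and had the largest change of the 10 genes. It was at 269, 217, 225 and 226 CPM in WT and at 563, 472, 469 and 427 CPM in Cxcr2-/- libraries. The groups were far apart, with the lowest Cxcr2-/- library well above the highest WT library. The rise was 2.06-fold (log2 1.04, SE 0.11, edgeR adjusted p = 1.27e-05). Ldhb, which favours the reverse reaction, was at 1.34 CPM or less in every library, and Ldha made up at least 99.1% of both per kb of exon. The processed pseudogenes Ldha-ps and Ldha-ps2 had 19 and 13 counts in all libraries together.

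Slc16a3 (MCT4), the exporter of lactate in strongly glycolytic cells, moved against Ldha. On chromosome 11 (120948480 to 120960868), it was at 697, 750, 671 and 765 CPM in WT and at 604, 509, 538 and 514 CPM in Cxcr2-/- libraries. All Cxcr2-/- values were below all WT values, and the level was 0.751 of that of WT (log2 -0.41, SE 0.10, edgeR adjusted p = 0.00450). Slc16a1 (MCT1) was at 1.68 CPM or less in every library, so that Slc16a3 made up 99.6% or more of both per kb of exon. Slc16a7 (MCT2) was also lower, at a low level (log2 -0.53, edgeR adjusted p = 0.0367), a call lost in 7 of 18 alternatives (edgeR adjusted p up to 0.103), among them the fits without WT library 1, 3 or 4 or without Cxcr2-/- library 1 or 3. Bsg, the chaperone that brings Slc16a3 to the membrane, rose from 31.6 to 37.7 CPM in WT to 45.4 to 56.0 CPM in Cxcr2-/- libraries (log2 0.59, edgeR adjusted p = 3.89e-04).

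Levels of different genes can be compared per kb of exon. In WT neutrophils Pkm had the most RNA (254 ± 36.6 CPM per kb, SD, n = 4), followed by Slc2a3 (143 ± 4.85), Slc16a3 (135 ± 8.25) and Hk3 (135 ± 7.03), and these last 3 did not differ beyond their spread. Pfkfb4 (87.4 ± 9.80), Ldha (70.7 ± 7.06), Slc2a1 (32.1 ± 3.40), Hk2 (18.2 ± 1.19), Hk1 (11.4 ± 0.928) and Pfkl (4.53 ± 0.285) came below. In Cxcr2-/- neutrophils Pkm was again first (377 ± 54.7) and Hk3 (197 ± 45.4), Slc2a3 (168 ± 23.1) and Ldha (146 ± 17.3) followed with overlapping spreads, all above Slc16a3 (102 ± 8.20) and Pfkfb4 (91.3 ± 11.3). By the means alone, Ldha went from the sixth place to the fourth and Slc16a3 from the third to the fifth. The 4 genes at the foot of the order kept their places. Places among genes whose spreads overlap are not resolved. These lengths come from an annotation release other than the one the reads were counted on.

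The steps between the members of the list were covered by 35 other genes of glycolysis, of which 27 passed the filter on low counts. Of these, 17 were higher and 2 lower (Slc2a6 and, less steadily, Slc16a7), against 23.7% and 21.0% of all tested genes. Among the better expressed genes 31.0% were higher and 28.6% lower. The median log2 fold change of the 27 genes was 0.61. Every step from glucose 6-phosphate to pyruvate had at least 1 gene that rose. The largest rises among the abundant enzymes were those of Gapdh (408 to 590 CPM in WT, 960 to 1176 CPM in Cxcr2-/- libraries, log2 1.10), Tpi1 (log2 1.09) and Pgk1 (log2 1.07), with edgeR adjusted p of 2.10e-05, 1.08e-05 and 3.02e-06. Eno1 (log2 0.80), Gpi1 (0.74), Aldoa (0.65) and Pgam1 (0.59) also rose. Many of these genes have processed pseudogenes, and Eno1 has the near copy Eno1b (log2 1.01), so that the split of reads between copies is uncertain. The plot in pathway order shows all of them with the 10 genes.

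**Figure D3:**
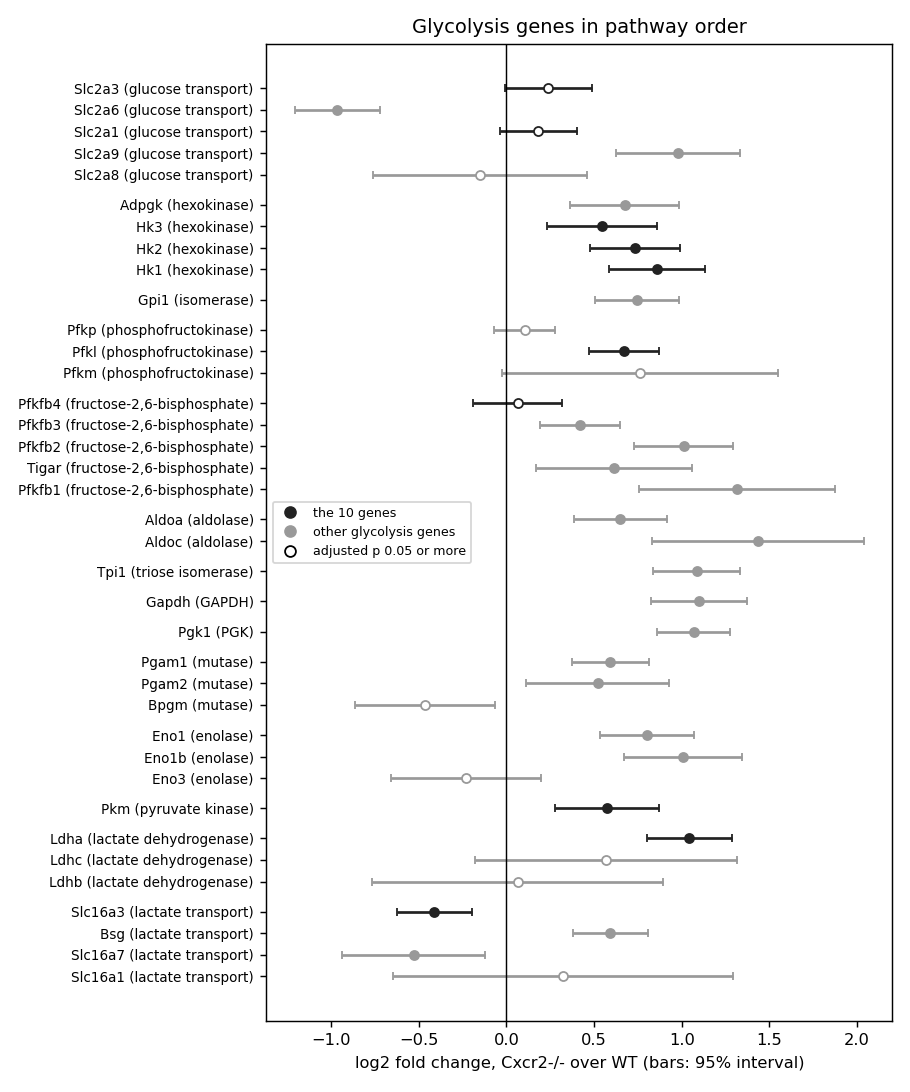
Log2 fold change (Cxcr2-/- over WT, horizontal axis) with its 95% interval for the 10 genes (black) and the tested other glycolysis genes (grey), from glucose transport at the top to lactate transport at the foot. Open symbols have an adjusted p of 0.05 or more, and most filled symbols lie between 0.42 and 1.44, with Slc2a6, Slc16a3 and Slc16a7 below 0.

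Genes of the mitochondrial respiratory chain moved in the same direction as the glycolytic enzymes. Of 74 tested nuclear genes of complexes I to V, 63 were higher and 1 lower (Sdha, log2 -0.25), against 23.7% and 21.0% of all tested genes. Among the better expressed genes 31.0% were higher and 28.6% lower. The median log2 fold change of the 74 genes was 0.71, next to 0.56 for the 10 genes. The call of Sdha was lost in 5 of 18 alternatives, among them the fits without WT library 1 or without Cxcr2-/- library 2 or 3. By complex, the genes that rose were 30 of 36 in complex I, 2 of 4 in complex II, 8 of 9 in complex III, 9 of 10 in complex IV and 14 of 15 in complex V. Among the larger changes were Ndufa1 (log2 1.39) and Ndufb7 (1.30) of complex I and Uqcrb (1.17) of complex III. Of the 13 chain genes encoded by mitochondrial DNA, 7 had enough counts to test and all 7 rose, with a median log2 fold change of 1.48. The call of mt-Nd2, whose groups overlapped (log2 1.12, edgeR adjusted p = 0.0453), was lost in 13 of 18 alternatives, among them DESeq2 and the fits without any 1 of the WT libraries or of Cxcr2-/- libraries 3 and 4, which left 6 genes. The other 6, among them mt-Co2 and mt-Atp6, had 15 counts or fewer in all libraries together, so that the deposited counts cover this genome in part. mt-Co1, a core subunit of complex IV, was at 259, 217, 261 and 206 CPM in WT and at 393, 573, 1022 and 837 CPM in Cxcr2-/- libraries (log2 1.58, SE 0.24, edgeR adjusted p = 1.64e-04).

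The Cxcr2-/- libraries with the most glycolytic RNA were not those with the most mitochondrially encoded RNA. The summed CPM of the 10 genes was 6883, 6029, 5331 and 5086 in Cxcr2-/- libraries 1 to 4, against 4272 to 4890 in WT. Most counts of the mtDNA-encoded genes came from mt-Co1 (150329 over the 8 libraries, against 31581 for mt-Cytb, the next). The sums of the mtDNA-encoded genes were 614, 806, 1717 and 1212 in these Cxcr2-/- libraries, against 319 to 423 in WT. Nuclear chain genes summed to 2452, 2261, 2661 and 2327 CPM, against 1414 to 1774 in WT, with no such order. The ratio of nuclear chain to the 10 genes was 0.356 and 0.375 in Cxcr2-/- libraries 1 and 2, within the WT range of 0.331 to 0.388, and 0.499 and 0.458 in libraries 3 and 4. Erythroid markers were also highest in libraries 3 and 4 (12.2 and 12.8 CPM). The summed immature neutrophil markers, mostly Ltf and Camp, had the same order over the 4 Cxcr2-/- libraries as the 10 genes (33957, 28194, 25391 and 22751 CPM). The part of erythroid or immature cells in the sums of the 10 genes and of the chain was not tested.

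**Figure D4:**
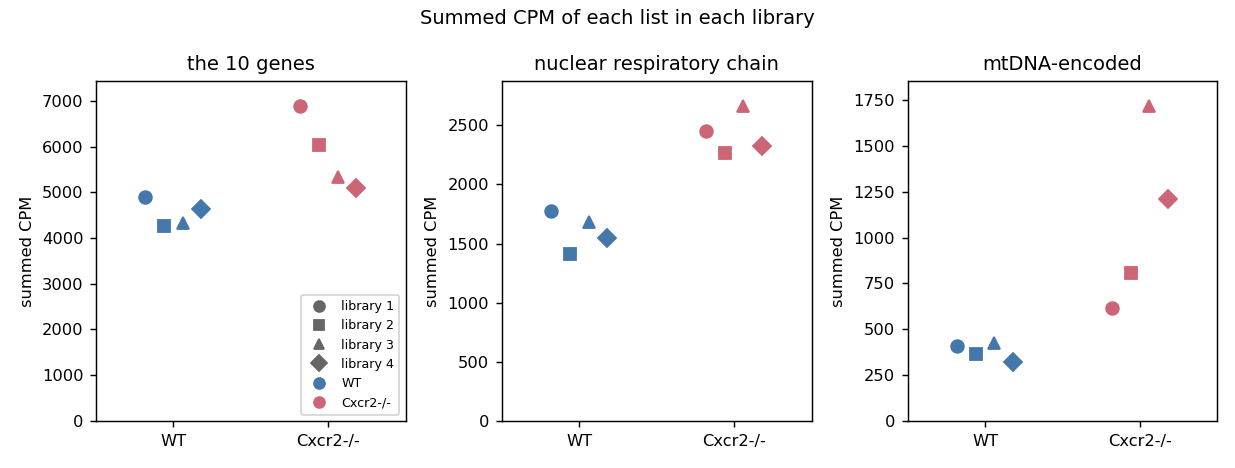
Summed CPM (vertical axes from 0) of the 10 genes, of the 74 nuclear respiratory chain genes and of the 13 mtDNA-encoded genes, mostly mt-Co1. The 4 WT libraries are in blue and the 4 Cxcr2-/- libraries in red. All Cxcr2-/- libraries lie above WT in each panel, with library 1 highest for the 10 genes and library 3 highest for the mtDNA-encoded genes.

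In the pentose phosphate pathway, which gives the NADPH for the oxidative burst, 6 of 8 genes rose and 1 fell (median log2 0.63). G6pdx, its first enzyme, rose from 468 ± 47.7 CPM (SD, n = 4) in WT to 1403 ± 174 (n = 4) in Cxcr2-/- neutrophils (log2 1.58, edgeR adjusted p = 9.83e-07), more than any of the 10 genes, and Pgls (log2 1.26) and Tkt (1.02) rose with it. Taldo1 fell from 989 ± 148 to 662 ± 34.5 CPM (log2 -0.58, edgeR adjusted p = 0.00162). Of 13 glycogen genes 9 rose, led by Gyg (log2 1.38), Gys1 (1.04) and Pgm1 (0.86), and Pygm fell (-1.12), with a median of 0.35. At the entry of pyruvate into mitochondria 5 of 14 genes rose and 1 fell (median 0.12), near the 31.0% higher of the better expressed genes. Pdk3, a kinase that switches off pyruvate dehydrogenase, rose from 16.8 ± 2.37 to 40.8 ± 3.56 CPM (log2 1.28, edgeR adjusted p = 3.29e-06), and Mpc2 (0.53) and Pdha1 (0.45) rose less. The gene that fell was Pdk2, at a low level (log2 -1.17). In the TCA cycle 10 of 17 genes rose and 1 fell (Sdha), with a median of 0.48. Of all tested genes 23.7% were higher and 21.0% lower, and of the better expressed genes 31.0% and 28.6%. With the 1.5-fold condition, 4 of 8 pentose phosphate, 5 of 13 glycogen and 4 of 17 TCA genes were higher. Lower under it were 0, 1 and 0, against 15.7% of all tested genes in each direction.

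Of 16 tested regulators of glycolysis 5 were higher and 2 lower, with a median log2 fold change of 0.13. The share that rose is near the 31.0% higher among the better expressed genes, and the share that fell is below their 28.6%, so the counts show no change particular to this list. The count of higher regulators was also unsteady, at 2 with DESeq2, 3 without any 1 of Cxcr2-/- libraries 1 and 2 and WT libraries 1 and 4, 2 without WT library 2 and 1 without WT library 3. Both genes that fell restrain glucose uptake and respond to glucose through Mlx partners. Txnip was at 1500 ± 339 CPM (SD, n = 4) in WT and 660 ± 115 (n = 4) in Cxcr2-/- neutrophils (log2 -1.19, edgeR adjusted p = 1.38e-04), and Arrdc4 at 189 ± 26.5 and 79.2 ± 13.6 (log2 -1.25, edgeR adjusted p = 1.48e-05). Mlx rose (log2 0.76). Hif1a, the oxygen-sensitive factor that drives many of the genes named here, had a log2 fold change of 0.15 and did not pass the test (edgeR adjusted p = 0.390). This is its RNA alone, and the level and activity of its protein were not measured.

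**Figure D5:**
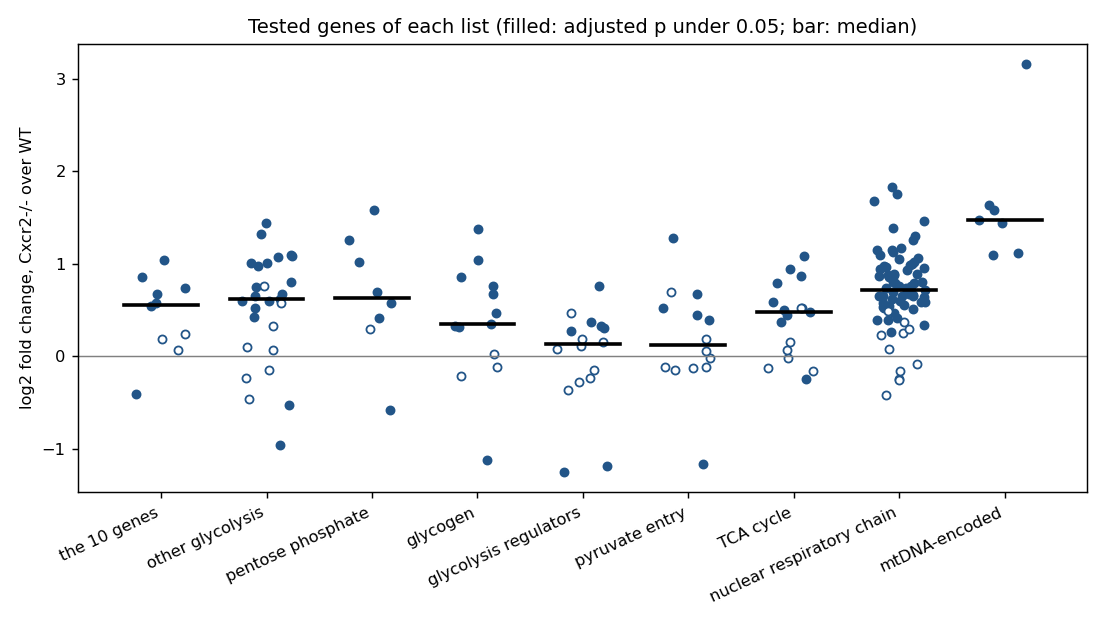
Log2 fold change (Cxcr2-/- over WT, vertical axis) of each tested gene in 9 lists, filled where the adjusted p was under 0.05, with the median of each list as a bar. The medians run from 0.12 for pyruvate entry and 0.13 for the regulators to 0.71 for the nuclear respiratory chain and 1.48 for the mtDNA-encoded genes.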

How the data were processed

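RNA of sorted spleen neutrophils from 4 WT and 4 Cxcr2-/- mice was depleted of ribosomal RNA and made into directional libraries. The authors trimmed the paired-end reads, used STAR for the alignment to mm10 and HTSeq for the counting, and deposited whole-number counts per gene. HTSeq and mm10 are also named in the submitters' processing notes. The strand setting of the counting is not given in the sources used here, so reads of overlapping antisense genes (Unc5a at Hk3, Hk1os at Hk1, Gm12868 at Slc2a1) are uncertain. Identifiers were joined without version to GENCODE M21 (GRCm38), which held 52133 of 55414, 35 with the same version. Genes without entry took 1.42% of the counts. HTSeq's own totals stayed out of the tests.

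Counts were tested in R 4.3.3 with edgeR 4.0.16 (quasi-likelihood test, TMM, filterByExpr, Benjamini-Hochberg over all genes). In a test of these steps on simulated data the first criterion of recovery was missed, since changed genes of low counts were not all called, and it was then limited to genes of higher counts. Both edgeR and, more so, DESeq2 made more false calls there than the nominal share. Shares used counts per kb of exon and exact permutation tests (scipy 1.17.1), two-sided. Alternatives were DESeq2 1.42.0 (the authors' tool), other scalings and filters, covariates, a 1.5-fold threshold and each library left out. Groups came from the sample labels. Within a group, each pair of libraries differed beyond counting error (chi-square per gene 23.9 to 99.0). Precision did not follow total counts: Pfkl, the least abundant of the 10 genes with 12615 counts over the 8 libraries, had the smallest SE (0.092). Pkm, with 505292 counts, had an SE of 0.14.

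The 10 genes and all lists were chosen with earlier results of these data known. The text names the 10 genes, any gene of the other glycolysis list, the targeted gene, marker genes, and of each other list up to 3 genes per direction with the largest change among those with adjusted p under 0.05 and average log2 CPM of at least 3. Pdk2, Hif1a, mt-Co2 and mt-Atp6 were named outside this rule, after their values were seen. Some genes of the lists are not reported here.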

Additional observations from a re-analysis of the deposited data

Results flagged for a closer look

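Of 36 groups of 4 libraries checked, 1 held a library far from the others: Ldha was at 269 CPM in WT library 1, against 217 to 226 CPM in the other 3 WT libraries. The gap to the nearest library was 0.837 of the range of the group, above Dixon's 95% critical value, which chance passes in about 1 in 20 groups. Without WT library 1 the log2 fold change of Ldha remained past the test, as it did without each of the other libraries (0.97 to 1.12).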

How the results depend on the processing

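The 6 genes that rose and Slc16a3 remained past the test in each of the 8 fits without 1 library, with edgeR adjusted p of at most 0.0280. Pfkfb4 turned sign with total count scaling (-0.029), upper-quartile normalization (-0.057), protein-coding genes only (-0.013) and a covariate for B cell and macrophage markers (-0.092), and ranged from -0.028 to 0.11 in the fits without 1 library. That covariate, which goes partly with genotype, ended the call of Hk3 (0.29) and lowered Slc2a3 to 0.079. A covariate for erythroid markers added Slc2a3 (0.31). The difference of the Slc2a1 share ranged from -1.41 to 0.607 points without 1 library.

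The 1.5-fold condition left 2628 genes higher and 0 of the 10 genes lower. Other glycolysis genes lower numbered 1 with the B cell and macrophage covariate, with the 1.5-fold condition and with the replicate block, 4 with the erythroid covariate, and 1 to 3 without 1 library. Nuclear chain genes lower numbered 0 with the B cell and macrophage covariate, with no filter and with the 1.5-fold condition, 2 with the erythroid covariate, 3 with upper-quartile normalization, and 0 to 1 without 1 library. Nuclear chain genes higher numbered 50 with the 1.5-fold condition and 58 to 64 without 1 library. The mtDNA-encoded genes higher numbered 6 or 7 over the alternatives. The 5 higher regulators ranged from 1 to 5. Upper-quartile normalization moved the median of all genes to -0.11 and the share of higher calls from 53.0% to 41.2%, with 6 of the 10 genes higher as before, and total count scaling gave 44.3%. The causes were not tested.

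Same-numbered WT and Cxcr2-/- mice share only a number (correlations of their deviations -0.308 to 0.245), and with the replicate block 3719 genes were higher and 3349 lower, with 6 and 1 of the 10 genes. The 4 mice per group and deposited counts without transcript forms limit all results.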
